A study of Mus musculus with 6 samples.

Results

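The mouse probe sets for miR-143 (mmu-miR-143_st) and miR-145 (mmu-miR-145_st) were followed across 6 lung arrays, with the probe sets that carry the same names in other mammals as support. They were chosen by name, as 2 of the 609 mouse miRNA probe sets and of 7625 probe sets in all. The passenger (star) strands are not among the members. The other mammals added 10 probe sets for miR-143 and 10 for miR-145.

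RNA came from the upper left lung lobe of C57BL/6 mice aged 6 to 10 weeks, with 1 array per mouse. The 2 mice labelled CC10-rtTA-IL13 transgenic (TG) carry an interleukin 13 transgene that doxycycline switches on through a transactivator (rtTA). The CC10 promoter restricts it to club cells, secretory cells of the airway lining. The other 4 mice were wildtype (WT). Mice of both groups drank water with doxycycline at 2 mg/mL for 7 days, so the drug was shared. Effects of the transactivator and of induced interleukin 13 cannot be told apart, since no sample here had only the transactivator. The comparison asks whether these smooth muscle miRNAs differ in lungs with the induced cytokine, a mediator of type 2 inflammation. Values are the authors' deposited probe set values, whose base is inferred to be log2, and every fold below rests on that base.

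miR-143 and miR-145 are well known miRNAs of smooth muscle, the contractile cells around airways and vessels. Their genes lie next to each other and are thought to be copied together as a single primary transcript, from which each hairpin is cut out. In the RefSeq annotation the host is the long noncoding RNA Carmn, also known as Mir143hg, whose span holds Mir143 and Mir145a and no other miRNA gene, 2 in all. A further gene, Mir145b, lies outside it, and which of these RNAs the miR-145 probes bind is not known from the deposited table. The pair is switched on by serum response factor with its partner myocardin. miR-145 represses KLF4 and KLF5, transcription factors that hold back the contractile programme, and miR-143 represses ELK1, which favours proliferation. In mice without them, vessel walls are thin and their smooth muscle contracts poorly. The pair has different seeds, so each miRNA represses a target set of its own.

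The 6 arrays shared a similar background and differed in how much they detected. Array medians over all probe sets lay between 4.02 and 4.03. A probe set was called detected above the 95th percentile of the plant probe sets of its array, a limit of 4.22 and 4.25 on the TG arrays, against 4.27 to 4.33 on the WT arrays. Detected mouse probe sets numbered 201 and 199 on the TG arrays, against 132 to 172 on the WT arrays. The highest value on WT replicates 1 and 4 was 11.5 and 11.4, while it lay between 13.1 and 13.4 on the other arrays. Of the 609 mouse probe sets, 197 reached detection on 2 or more arrays and entered the test, both members among them.

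Neither miRNA differed between TG and WT past the threshold, and their measured differences had opposite signs. Both were well above the detection limit on all 6 arrays. miR-145 exceeded its array's limit by 5.80 and 5.73 in TG, against 4.64, 5.34, 5.77 and 4.73 in WT replicates 1 to 4, all on the log2 scale. miR-143 exceeded it by 4.06 and 4.18 in TG, against 4.0, 4.24, 4.70 and 5.30 in WT. Every member value was thus a measured signal and not background.

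miR-145 had log2 values of 10.02 and 9.98 in TG, against 8.94, 9.61, 10.06 and 9.05 in WT replicates 1 to 4. The TG arrays were high and close together, but WT replicate 3 lay above both of them, so the groups overlapped. The means were 10.00 ± 0.03 in TG and 9.42 ± 0.52 in WT (SD, n = 2 and n = 4). The difference, TG minus WT, was 0.58 ± 0.35 (SE), or 1.50-fold, with a 95% interval of -0.22 to 1.38 on the log2 scale. limma with Benjamini-Hochberg adjustment over the 197 tested probe sets gave an adjusted p of 0.40, which did not pass the 0.05 threshold. The interval leaves room for folds between 0.859 and 2.60.

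miR-143 had log2 values of 8.27 and 8.43 in TG, against 8.30, 8.51, 8.98 and 9.62 in WT replicates 1 to 4. WT replicate 1 lay between the TG arrays, so the groups overlapped, WT replicate 2 was just above them, and WT replicates 3 and 4 stood higher. The means were 8.35 ± 0.11 in TG and 8.85 ± 0.59 in WT (SD, n = 2 and n = 4). The difference was -0.50 ± 0.38 (SE), or 0.706-fold, with a 95% interval of -1.38 to 0.37 and an adjusted p of 0.493 by limma. On the fold scale the interval ran from 0.385 to 1.29. Without WT replicate 4 the miR-143 difference was -0.25.

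By the same test 6 of the 197 mouse probe sets passed, 3.05% and all of them higher in TG. miR-145 and miR-143 ranked 61 and 88 by p. Before adjustment 39 probe sets, 19.8%, had a p under 0.05, and neither member was among them, with p of 0.132 for miR-145 and 0.220 for miR-143. The median difference over all tested probe sets was 0.21, with 130 above 0 and 67 below. By size, miR-145 was number 54 from the top and miR-143 number 11 from the bottom. Centring each array on its tested median shifted every difference by -0.44, so that 133 of the 197 then lay below 0, and left miR-145 at 0.14 and miR-143 at -0.94. Any other miRNA given below with a difference between 0 and 0.44 changes sign under that centring.

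**Figure D1:**
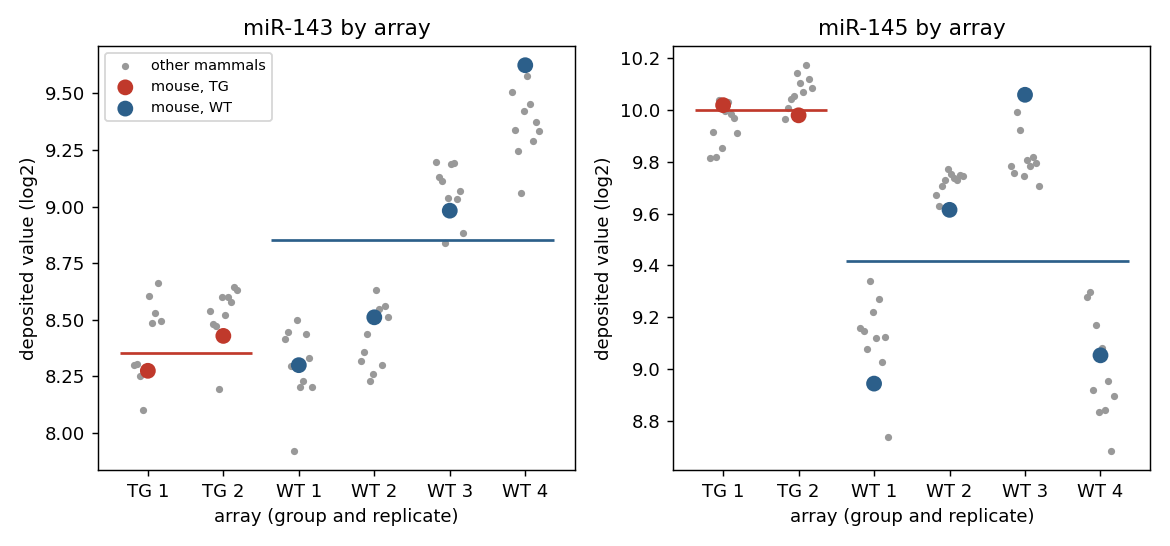
Deposited log2 value (vertical axis) of miR-143 (left) and miR-145 (right) on each array. Large points are the mouse probe sets (red TG, blue WT), small grey points the 10 same-name probe sets of other mammals, and lines the mouse group means (8.35 and 8.85 for miR-143, 10.00 and 9.42 for miR-145); WT replicate 4 is the highest array for miR-143 and among the lowest for miR-145.

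The spread among WT mice was close in size to the difference between the groups. miR-143 had a range of 0.15 between the 2 TG arrays, against 1.33 over the 4 WT arrays. For miR-145 the range was 0.04 in TG, against 1.11 in WT. The WT SDs of 0.59 and 0.52 compare with a median of 0.38 over all tested probe sets, and 22.3% of these had a larger WT SD than miR-143 and 33.5% a larger one than miR-145. A range over 2 arrays says little about how TG mice vary.

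**Figure D2:**
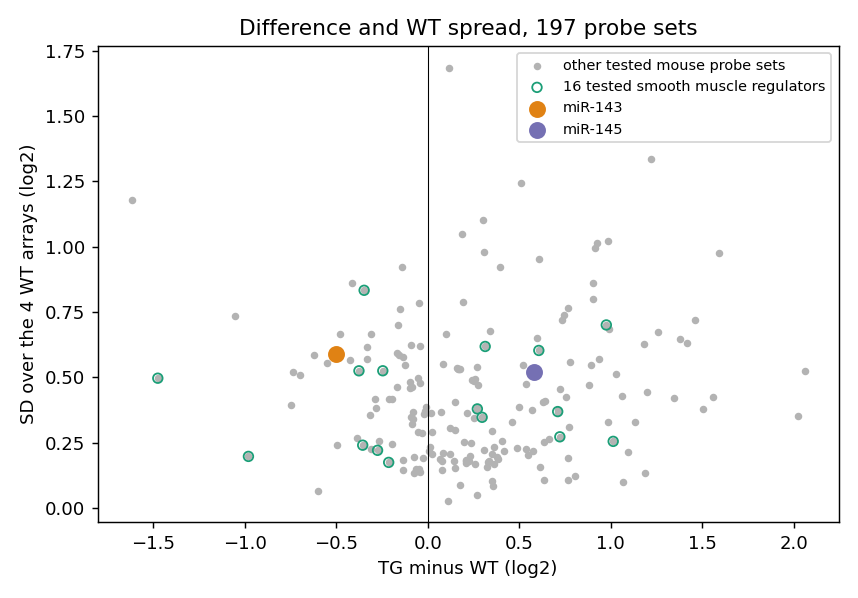
TG minus WT difference (horizontal axis, log2) against the SD over the 4 WT arrays (vertical axis, log2) for the 197 tested mouse probe sets. miR-143 (orange, -0.50 and 0.59) and miR-145 (purple, 0.58 and 0.52) lie on opposite sides of 0 within the cloud of the other probe sets, and green rings mark the 16 tested smooth muscle regulators.

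The WT arrays ordered the members differently. For miR-145, WT replicates 1 and 4 were low at 8.94 and 9.05, and these are the arrays with the lower highest values. The number of detected mouse probe sets did not order miR-145 in WT, since WT replicate 3, the highest for miR-145, had 146, against 149, 172 and 132 on WT replicates 1, 2 and 4. For miR-143, WT replicate 4 was the highest of the 6 arrays and WT replicate 1 among the lowest. The split by highest value thus went with miR-145 and not with miR-143. Against WT replicates 2 and 3 alone, whose highest values were like those of TG, miR-145 differed by 0.16 (adjusted p of 0.855 by limma). Against WT replicates 1 and 4 alone it differed by 1.0 (adjusted p of 0.0404), the sole alternative of 22 in which it passed. These are the WT arrays lowest for miR-145, so a larger difference against them follows from the choice and is no support for a difference. With the number of detected probe sets of other animals on each array as a covariate, the miR-145 difference changed sign to -0.36 ± 0.56 (SE). The SE of miR-143 rose from 0.38 to 0.75 under it. With 6 arrays this fit cannot separate the covariate from the group, so the change of sign is not read further.

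**Figure D3:**
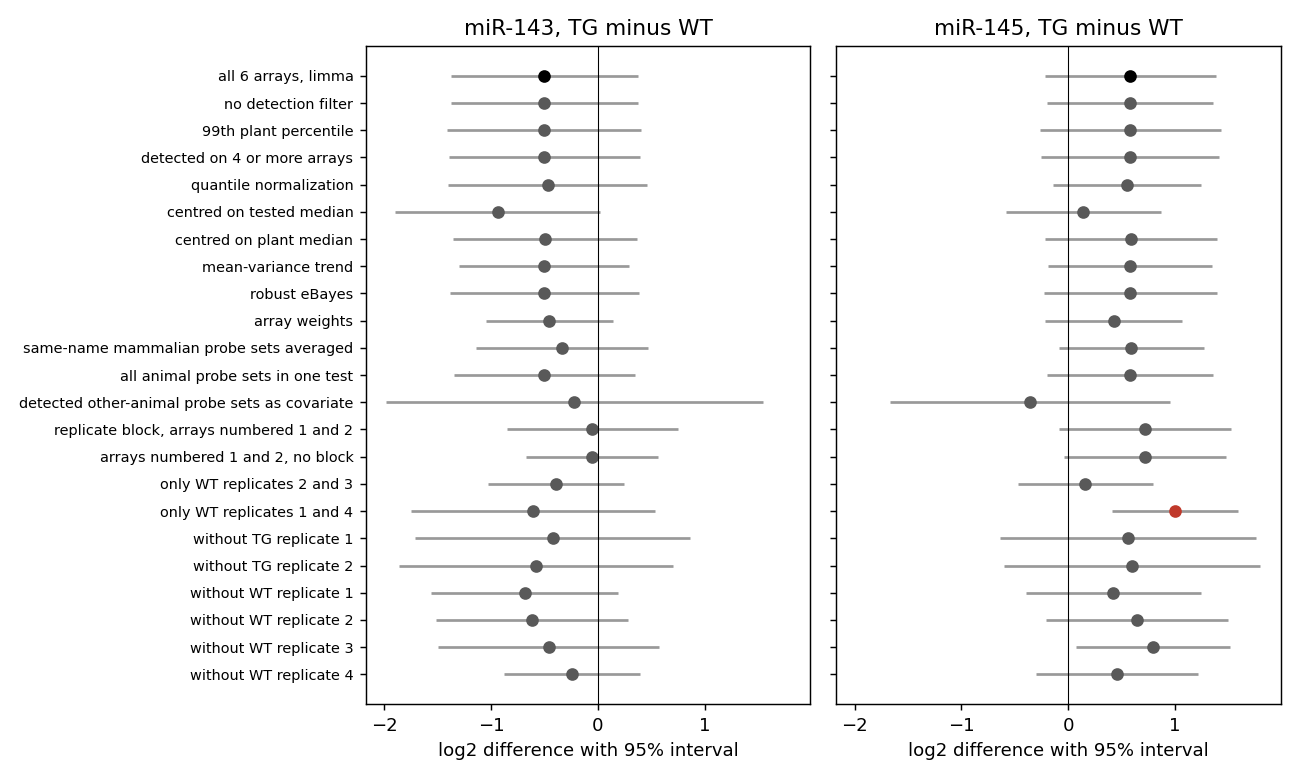
TG minus WT difference (horizontal axis, log2) with its 95% interval from limma for miR-143 (left) and miR-145 (right), for all 6 arrays (top, black) and under each of 22 alternatives. Red marks an adjusted p under 0.05, reached by miR-145 with only WT replicates 1 and 4 (1.0); the miR-143 estimates run from -0.94 to -0.05.

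The balance between the members was measured as the log2 value of miR-145 minus that of miR-143 on the same array. A shift common to all log2 values of an array cancels in it, but a change in the range of an array's values does not. Since probes differ in brightness, only its difference between arrays can be read. It was 1.74 and 1.55 in TG, against 0.64, 1.10, 1.08 and -0.57 in WT replicates 1 to 4. TG stood above every WT array, and WT replicate 4, low for miR-145 and high for miR-143, stood far below the rest. The means were 1.65 ± 0.14 in TG and 0.56 ± 0.79 in WT (SD, n = 2 and n = 4). The difference was 1.08 ± 0.59 (SE), a 2.12-fold higher balance of miR-145 over miR-143 in TG. The exact two-sided permutation test over the 15 splits of the arrays gave p = 0.133, and the smallest p these allow is 0.0667, so the test could not reach 0.05.

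Separation of this kind was common on these arrays. Among the 19306 pairs of tested mouse probe sets, 32.3% had a within-array difference whose groups did not overlap, and 17% had a difference between groups at least as large. The members' balance is therefore described here and not set apart from other pairs. Leaving out 1 array at a time gave differences from 0.71 without WT replicate 4 to 1.26 without WT replicate 2. TG stayed above the remaining WT arrays each time, as it must once the full groups do not overlap. Without WT replicate 4 the TG mean of 1.65 stood against a WT mean of 0.94 ± 0.26 (SD, n = 3). The covariate of detected probe sets turned the difference to -0.14, in a fit that cannot separate this covariate from the group.

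**Figure D4:**
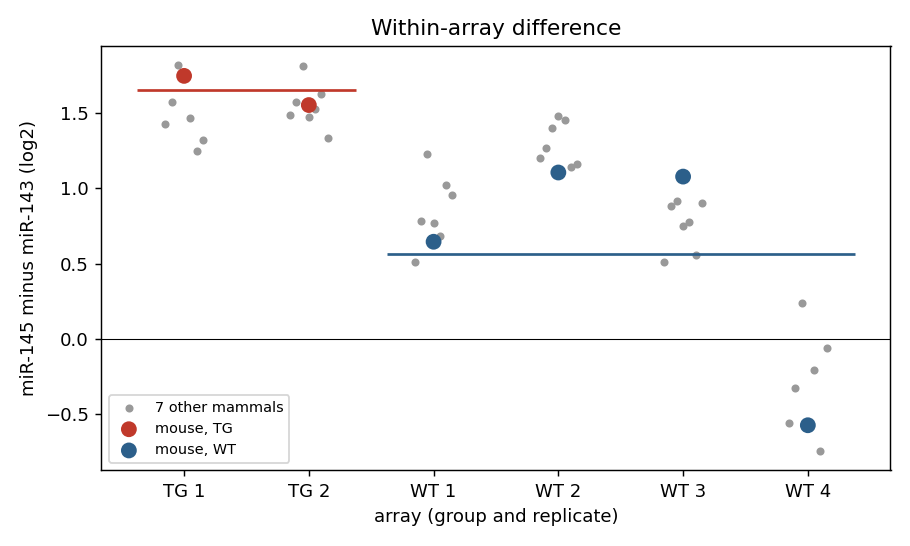
miR-145 minus miR-143 on each array (vertical axis, log2). Large points are the mouse probe sets (red TG, blue WT) with group means of 1.65 and 0.56 as lines, and small grey points the same difference from the probe sets of 7 other mammals; WT replicate 4 lies lowest in all of them.

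Probe sets of other mammals gave the same signs. They were read from the same RNA on the same arrays, so they add no mice, and which of them bind the mouse RNA is not known without probe sequences. All 20 were detected on all 6 arrays. For miR-145 the 10 differences were positive, from 0.42 for the rat to 0.73 for the gorilla probe set, with a median of 0.61. In 9 of the 10 TG stood above every WT array, against 25.8% of 1065 tested probe sets of other mammals and 29.4% of the mouse probe sets. The exception was the human probe set, with 9.82 and 10.04 in TG, against 9.08, 9.71, 9.99 and 8.92 in WT replicates 1 to 4. There, as in the mouse probe set, WT replicate 3 reached the level of TG.

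For miR-143 the 10 differences were negative, from -0.44 for the woolly monkey to -0.17 for the rat probe set, with a median of -0.35. All were smaller in size than the -0.50 of the mouse probe set. In 0 of the 10 did both TG arrays lie below all WT arrays, against 9.2% of the tested probe sets of other mammals and 6.6% of the mouse probe sets. WT replicate 4 was the highest array in all 10. The lowest array varied, being a TG array in 3 of them and WT replicate 1 in 5. Averaging the mouse probe set with those of its name gave -0.34 ± 0.33 (SE) for miR-143 and 0.59 ± 0.28 for miR-145, with adjusted p of 0.595 and 0.246 by limma.

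The balance could be formed within 7 other species that had both names. It was higher in TG in all 7, by 0.59 in the rat to 1.04 in the gorilla probe sets. The groups did not overlap in 6 of them, where 32.3% of all pairs of tested mouse probe sets did not. These 7 were read from the same arrays, so they add no mice. Permutation p ran from 0.133 for the opossum to 0.267 for the rhesus macaque probe sets. In the rhesus macaque probe sets the balance was 1.74 and 1.47 in TG, against 0.77, 1.48, 0.75 and -0.58 in WT replicates 1 to 4. WT replicate 2 thus lay just above TG replicate 2. The passenger strand of the mouse miR-145 hairpin had its own probe set, which was detected on 0 of the 6 arrays, with means of 4.08 in TG and 4.0 in WT.

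The members were not near each other in profile. Each tested mouse probe set was centred on its own mean over the 6 arrays, and likeness was the root-mean-square difference between centred profiles. Between miR-143 and miR-145 this was 0.757 on the log2 scale. Among the 196 other tested probe sets, miR-145 was number 126 in nearness to miR-143, and miR-143 was number 173 in nearness to miR-145. The median distance of the other probe sets was 0.655 from miR-143 and 0.506 from miR-145, so the pair lay further apart than the median in both.

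Nearest to miR-145 was miR-187, at a distance of 0.0987. Its log2 values were 5.33 and 5.26 in TG, against 4.24, 5.17, 5.32 and 4.37 in WT replicates 1 to 4. miR-187 was thus also high in TG and WT replicates 2 and 3, and low in WT replicates 1 and 4, where the value of WT replicate 1 was under its detection limit of 4.30. The next were miR-193b at 0.138, detected on 2 of the 4 WT arrays and under the limit on WT replicates 1 and 4, and miR-23b at 0.188. miR-23b, of a cluster with miR-27b and miR-24-1, had 10.55 and 10.50 in TG, against 9.77, 10.39, 10.32 and 9.62 in WT.

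Nearest to miR-143 was miR-199b, an miRNA of mesenchymal cells, at a distance of 0.192. Its log2 values were 6.05 and 5.73 in TG, against 6.14, 6.11, 6.43 and 7.36 in WT replicates 1 to 4. Like miR-143 it was highest in WT replicate 4 and next highest in WT replicate 3. The following were miR-374 at 0.195 and miR-194 at 0.204, both also highest in WT replicate 4. miR-374 was detected on 0 TG arrays and 2 WT arrays. None of these 6 neighbours passed the threshold between TG and WT, with adjusted p from 0.296 for miR-193b to 0.781 for miR-374 by limma. They were picked by likeness to the members over these same arrays. A similar pattern and a similar difference between the groups therefore follow from that choice.

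**Figure D5:**
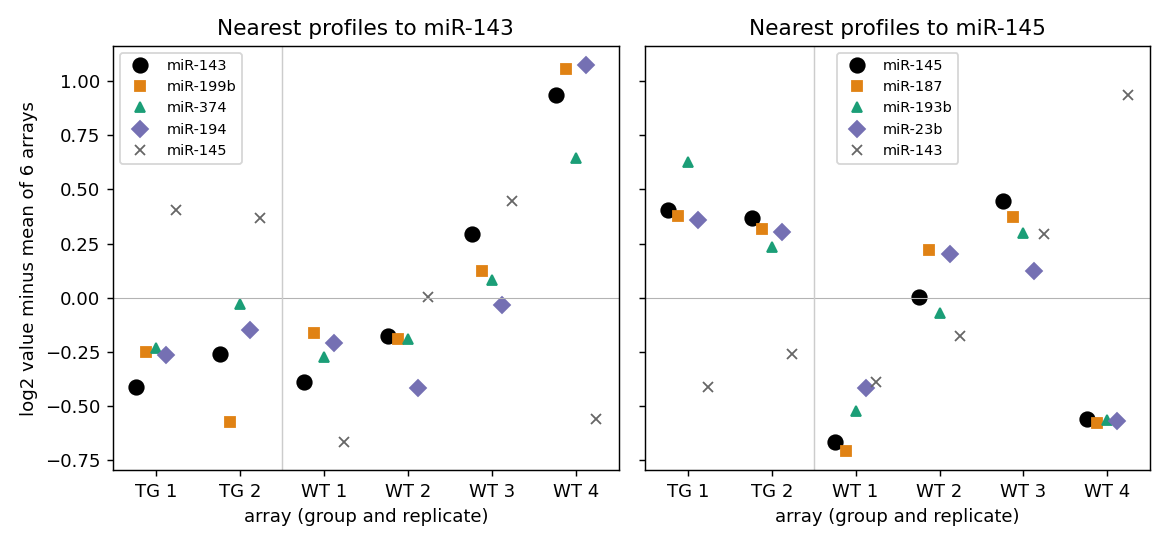
Log2 value minus the mean of the 6 arrays (vertical axis) for miR-143 (left) and miR-145 (right), each with its 3 nearest tested mouse miRNAs and, as crosses, the other member. The neighbours of miR-143 share its high value in WT replicate 4, and those of miR-145 share its low values in WT replicates 1 and 4. Being picked by likeness over these arrays, they share such values by choice.

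Other miRNAs that regulate smooth muscle had differences of mixed sign. The list holds miRNAs of opposing roles, so mixed signs say nothing about smooth muscle itself. Of a list of 21, 16 were tested, with 8 differences above 0, 8 below and a median of 0.03 (0.21 over all 197). By limma 0 of the 16 passed in either direction, and 5 had an unadjusted p under 0.05, where 3.05% and 19.8% of all 197 did. miR-21, which promotes growth of vascular smooth muscle, had 5.19 and 5.61 in TG, against 4.73, 4.24, 4.16 and 4.42 in WT replicates 1 to 4, and was detected on 2 of the WT arrays. Both TG arrays were higher than all WT arrays, with a difference of 1.01 ± 0.26 (SE), limma adjusted p = 0.0812.

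miR-221 and miR-222 share a seed and favour proliferation of vascular smooth muscle over contraction, the opposite of the role of miR-145. miR-221 had 7.71 and 7.71 in TG, against 6.72, 7.17, 7.27 and 6.79 in WT replicates 1 to 4. It was higher on both TG arrays than on any WT array, as in 29.4% of the 197 tested mouse probe sets. Like miR-145 it was lowest in WT replicates 1 and 4. The difference was 0.72 ± 0.25 (SE), limma adjusted p = 0.160. miR-222 had 7.41 and 7.47 in TG, against 6.63, 7.28, 7.30 and 7.37 in WT, and a difference of 0.30 ± 0.28 with an adjusted p of 0.626.

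On the other side, miR-195, which restrains growth of cultured vascular smooth muscle, had 6.66 and 6.54 in TG, against 7.41, 7.46, 7.60 and 7.85 in WT replicates 1 to 4. All WT arrays lay above TG, as in 6.6% of the 197 tested mouse probe sets. The difference was -0.98 ± 0.23 (SE), limma adjusted p = 0.0656. miR-10a, linked to the formation of smooth muscle from mouse embryonic stem cells, had 4.50 and 4.59 in TG, against 6.43, 5.38, 5.88 and 6.40 in WT. The difference was -1.48 ± 0.34, and its adjusted p of 0.0604 did not pass either.

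miRNAs of the cardiac and skeletal muscle programme were at background. miR-1 was detected on 1 of the 6 arrays and miR-133a, which represses RhoA in human bronchial smooth muscle cells, on 1. miR-133b was detected on 0 TG arrays and 2 WT arrays, and its values differed by -0.27 ± 0.24 (SE), limma adjusted p = 0.586. Of the 7 striated muscle markers 4 were detected on no array, and their summed level, taken as the log2 of the summed linear values, was 6.80 to 6.84 in TG and 6.84 to 6.94 in WT. These markers of heart and skeletal muscle were thus at or near background on all 6 arrays.

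The whole lobe was measured, so fewer cells of a type and less RNA per cell cannot be told apart. The array carries small RNAs and no protein-coding gene of smooth muscle, so the amount of that tissue was not measured. miR-126-3p of endothelium and miR-200a, miR-200b and miR-200c of epithelium were detected on 6 of 6 arrays. The other markers of these lists were not. miR-126-5p was detected on 0 arrays, miR-205 on 2, miR-141 on 3, miR-203 and miR-429 on 4, and miR-375 on 5. Of the leukocyte markers, miR-142-3p and miR-142-5p were detected on 0 arrays.

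The endothelial marker miR-126-3p had 9.30 and 9.34 in TG, against 10.14, 9.48, 10.69 and 11.19 in WT replicates 1 to 4. Like miR-143 it was highest in WT replicates 4 and 3. Both TG arrays lay below all WT arrays, as in 6.6% of the 197 tested mouse probe sets. Its difference was -1.05 ± 0.44 (SE), limma adjusted p = 0.232. Of the 2 endothelial markers miR-126-5p was detected on 0 arrays, and their summed level was 9.34 to 9.37 in TG and 9.50 to 11.2 in WT.

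The 4 mesenchymal markers, all tested, had 2 differences above 0 and 2 below, a median of -0.16 and 0 past the limma threshold (1 at an unadjusted p under 0.05, against 19.8% of all 197). miR-199a-5p, detected on 2 of the WT arrays, had 5.57 and 5.50 in TG, against 3.81, 4.38, 4.89 and 4.28 in WT replicates 1 to 4, a difference of 1.20 ± 0.31 (SE), limma adjusted p = 0.0812. The miR-199b difference was -0.62 ± 0.38. Their summed level was 8.36 to 8.52 in TG and 8.32 to 8.90 in WT, and the groups overlapped.

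The 8 epithelial markers, all tested, had 5 differences above 0, 3 below, a median of 0.22 and 0 past the limma threshold (1 at an unadjusted p under 0.05, against 19.8% of all 197), and a summed level of 10.2 to 10.3 in TG and 9.65 to 10.0 in WT. miR-205 of basal cells, at 0.63 ± 0.22 (SE), and miR-200c, at 0.54 ± 0.24, had the smallest p. miR-205 was detected on 2 TG arrays and 0 WT arrays, so it entered the test through TG alone. It was the 1 marker with an unadjusted p under 0.05, so that count is no support for a difference. Of the 6 leukocyte markers 4 were tested, with 3 above 0, 1 below, a median of 0.41 and 0 past the limma threshold (1 at an unadjusted p under 0.05, against 19.8% of all 197). miR-342-3p was at 1.14 ± 0.29 and miR-342-5p, detected on 1 WT array, at 0.61 ± 0.30. The leukocyte sum was 8.64 to 8.89 in TG and 7.93 to 8.41 in WT. The epithelial and leukocyte sums were thus higher in TG without overlap on the deposited scale. Of the 197 tested probe sets, 29.4% likewise had both TG arrays above all WT arrays. Tested medians were also higher in TG, at 5.24 and 5.29, against 4.63 to 5.21 in WT. The sums were not compared after centring, so whether the separation holds on another scale was not tested. The brightest probe set, which weighs most in such a sum, was miR-200c at 10.06 and 9.92 in TG, against 9.19 to 9.72 in WT, for the epithelial sum. For the leukocyte sum it was miR-342-3p at 8.21 and 7.78 in TG, against 6.53 to 7.31 in WT. Other members differed in both directions, with miR-200a, miR-200b, miR-203 and miR-223 below 0, so the sums do not stand for the lists as a whole. Their part in the differences of miR-143 and miR-145 was not tested.

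Erythroid markers and the miR-29 family did not separate the groups. Of the 3 erythroid markers 2 were tested, miR-486 at 0.31 ± 0.57 (SE) and miR-451 at -0.01 ± 0.29, with a summed level of 7.89 to 8.24 in TG and 6.79 to 8.50 in WT. The miR-29 family, which represses collagens and other matrix genes, had 2 of 3 tested, miR-29c at 0.21 ± 0.23 and miR-29a at -0.17 ± 0.38, with a sum of 7.62 to 7.67 in TG and 7.28 to 8.37 in WT. In both lists 0 members passed by limma, and 0 had an unadjusted p under 0.05, against 19.8% of all 197.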

How the data were processed

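The authors' deposited table holds 1 log2 value per probe set and array; base 2 was inferred from the range of the values. TRIzol was used for extraction and an Affymetrix protocol for biotin labelling, per the labels' protocols. How the authors corrected, summarized and normalized the signals is not given in the sources used here. No scan date or batch was given. The labels call the samples biological replicates. All columns were used (0 unused).

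Groups came from the sample titles. TG was compared with WT over the 197 mouse probe sets detected on 2 or more arrays, with lmFit and eBayes of limma (version 3.58.1, R version 4.3.3), two-sided, and the code was tested on simulated data. Single values were tested by exact permutation. Gene names came from RefSeq on assembly GRCm38.p6, and no coordinates are printed because the table names no build. The members, lists, alternatives and tests were chosen with earlier results of these data known. Named miRNAs are the members, their 3 nearest in profile, 4 smooth muscle regulators with the smallest p plus miR-1, miR-133a, miR-133b, miR-221 and miR-222, and 2 per other list. Further list members are named for their detection or sign. Alternatives covered the filter, normalization, centring, variance model, array weights, averaging, a covariate, the replicate block and subsets of arrays.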

Additional observations from a re-analysis of the deposited data

Results flagged for a closer look

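Among 41 sets of WT values examined, 2 had an array far from the other 3 by Dixon's ratio of the gap to the whole range, above its 95% critical value, and chance flags about 1 in 20. miR-222 had a ratio of 0.880, from WT replicate 1 at 6.63 against 7.28 to 7.37 on the other WT arrays. miR-150, of lymphocytes, had a ratio of 0.835, from WT replicate 2 at 6.71 against 6.32 to 6.39. Neither miR-143, miR-145 nor their within-array difference was among them.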

How the results depend on the processing

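The miR-143 difference stayed negative and short of the threshold in all 22 alternatives, from -0.94 to -0.05, with adjusted p from 0.276 to 0.967. miR-145 stayed positive in 21 of 22. It was -0.36 with the count of detected other-animal probe sets as covariate. It passed, at 1.0, with only WT replicates 1 and 4, its lowest WT arrays. The within-array difference stayed positive in 18 of 19 alternatives and was -0.14 with that covariate. That fit cannot separate the covariate from the group, and the cause was not tested. Leaving out each array in turn gave -0.69 to -0.25 for miR-143, 0.42 to 0.80 for miR-145, 0.71 to 1.26 for their within-array difference and 0 to 27 calls over all mouse probe sets. Against 6 calls with all arrays, there was 1 without a detection filter, 2 at the 99th plant percentile, 1 with detection on 4 or more arrays, 0 with quantile normalization, 2 with centring on the tested median, 33 with array weights, 14 with averaging of same-name probe sets, 14 with all animal probe sets tested together, 0 with the covariate and 31 with only WT replicates 1 and 4. With the replicate block on the arrays numbered 1 and 2, miR-143 was at -0.05, miR-145 at 0.72 and their within-array difference at 0.77, with 12 calls. Both members had the same SE of 0.41 there, so this fit used a variance pooled over probe sets, and the 12 calls rest on that pooling. Without a block on the same arrays there were 0 calls. Deviations of same-numbered arrays correlated at -0.21 and 0.07. With 2 TG arrays, whose deviations from their mean mirror each other, these values cannot show whether same-numbered samples share more than a number. Having 2 TG and 4 WT arrays limits the precision throughout.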
